A study of Mus musculus with 12 samples.

Results

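The 10 genes described here, Gas5, Snhg1, Snhg3, Snhg4, Snhg6, Snhg8, Snhg12, Snhg15, Snhg17 and Zfas1, are non-coding host genes of small nucleolar RNAs (snoRNAs). They were chosen by name, as hosts whose spliced transcripts are known substrates of translation-dependent decay, and are 10 of the 48709 genes counted. The choice was made with earlier results of these data known. All 10 had enough counts to be tested, as did 17294 genes in all. RNA sequencing had been done on pancreatic islets of female mice, in 12 libraries. The treated mice had been given diphtheria toxin (DT) and were sampled at 1, 3 or 5 DPA (taken to mean days post-ablation), with 3 libraries each, and 3 libraries came from untreated mice (CTRL). All 4 groups shared 1 genotype, labelled NSG RIP-DTR Htz: an immunodeficient strain with few lymphocytes of its own, heterozygous for a toxin receptor that the rat insulin promoter drives in beta cells. The controls therefore carried the receptor too, and they had not received a vehicle. The labels state neither age nor dose.

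snoRNAs guide chemical modification of ribosomal RNA and are cut out of the introns of their host transcripts. The exons that remain are spliced, exported and loaded onto ribosomes although they encode no known protein, and the ribosome meets a stop codon early. Exon junctions left downstream of that stop recruit the UPF and SMG proteins of nonsense-mediated decay, so these host RNAs are short-lived while translation runs and build up when it is blocked. Diphtheria toxin blocks translation in cells that take it up: it ADP-ribosylates the diphthamide residue of elongation factor 2. In islets these hosts are known mainly as housekeeping transcripts.

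Of the 10 hosts, 9 were placed in the GENCODE M21 annotation by identifier. Inside them lie 34 annotated snoRNA gene entries, from 1 each in Snhg6 (Snord87), Snhg8 (Snora24) and Snhg15 (Snora9) to 10 in Gas5. Some entries overlap: Snora16a in Snhg12 and Snord80 in Gas5 are each annotated more than once over nearly the same bases. Snhg4 was not placed. All 34 entries have a row in the count table and all 34 are listed at 0 counts over the 12 libraries. Whether reads from them could be counted to the host gene is not stated in the sources used here. Spliced member transcripts often had the layout that decay reads. Taking the first frame from ATG of at least 10 codons, 68 of 82 spliced transcripts (82.9%) had an exon junction more than 50 bases after its stop, against 66.2% of 2780 spliced transcripts from 1210 other non-coding genes tested. This was a description of annotated sequence, with no test. Gas5 gave 25 of the 82 transcripts and Snhg1 18, so the genes do not weigh equally. The members' transcripts had a median of 4 exons and the others 3, for which the shares were not adjusted. In Snhg3 2 of 5 transcripts had such a junction. In 1 transcript per gene, the best supported one with most exons, 7 of 9 members had such a junction, and with the longest transcript in its place 8 of 9 had one. The gene that differed was Snhg15, with 0 such junctions in the first case and 1 in the second. Snhg3 had 0 in both cases. The first frames of Gas5 (12 exons, 23 codons, 7 junctions after the stop) and Zfas1 (5 exons, 17 codons, 4 junctions) are shown as examples of how short the translated stretch can be, from the GENCODE transcripts, 5′ to 3′, with the stop codon in capitals.
Gas5 frame: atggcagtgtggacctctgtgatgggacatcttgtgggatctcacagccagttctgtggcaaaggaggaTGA
Zfas1 frame: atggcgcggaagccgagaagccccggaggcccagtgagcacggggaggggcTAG

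Many snoRNA hosts also start with a run of pyrimidines, the mark of transcripts whose translation follows growth signals. Promoter windows from RefSeq (GRCm38.p6) matched 8 members, with 10 annotated starts. A run of at least 5 C or T letters beginning with C within 10 bases of the start was present at 4 of the 10 starts (40.0%), against 29.0% of 32841 other promoters and 7 of 15 ribosomal protein promoters. The 4 are shown, with the run in capitals, because they include both a host that rose at 1 DPA (Snhg12) and hosts that were not called (Snhg3 and Snhg8). They span 20 bases on each side of the start, on chromosomes 1 (plus strand), 4 (plus), 3 (minus) and 4 (minus).
Gas5, chr1:161035146-161035185: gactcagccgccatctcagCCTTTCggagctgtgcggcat
Snhg12, chr4:132308658-132308697: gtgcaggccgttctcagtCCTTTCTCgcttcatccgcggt
Snhg8, chr3:123508317-123508356: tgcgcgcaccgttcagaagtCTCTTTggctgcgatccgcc
Snhg3, chr4:132353667-132353706: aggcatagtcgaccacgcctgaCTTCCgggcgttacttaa

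The data came from 29867083 to 50012558 counts per library, of which 4310 to 9748 fell in the 10 hosts. Beta cell markers (10 genes) took 11.3% to 15.3% of counts at 1 DPA, 15.5% to 18.7% at 3 DPA and 16% to 21.0% at 5 DPA, against 17.3% to 20.2% in CTRL, so the islet label held. No marker of any list was at 0 in any library. CTRL replicate 3 stood apart in having the lowest macrophage (12 genes, 0.0150%) and stromal (12 genes, 0.0840%) marker shares of its group, where the highest were 0.0632% and 0.264%. Another library, 3 DPA replicate 1, stood apart among the hosts, as described below.

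The summed level of the hosts was highest 1 day after toxin, with the hosts contributing unequally. In CPM, which sets each count against its library's TMM-scaled total, the sum was 262.0, 257.3 and 283.4 in the 3 libraries at 1 DPA, 202.5, 159.6 and 153.2 at 3 DPA and 136.2, 148.9 and 147.3 at 5 DPA, against 112.0, 103.9 and 117.8 in CTRL. No library of any treated group overlapped CTRL in this sum. In bulk islets, a change in the number of cells of a type and a change in RNA per cell cannot be told apart. Gas5 made up 19.0% to 22.5% of the sum at 1 DPA, against 41.0% to 42.4% in CTRL. The rest of the 1 DPA sum was mostly Snhg12, Snhg15 and Snhg17, which together reached 136.3, 126.2 and 159.7 CPM, against 22.8, 19.7 and 25.5 CPM in CTRL.

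**Figure D1:**
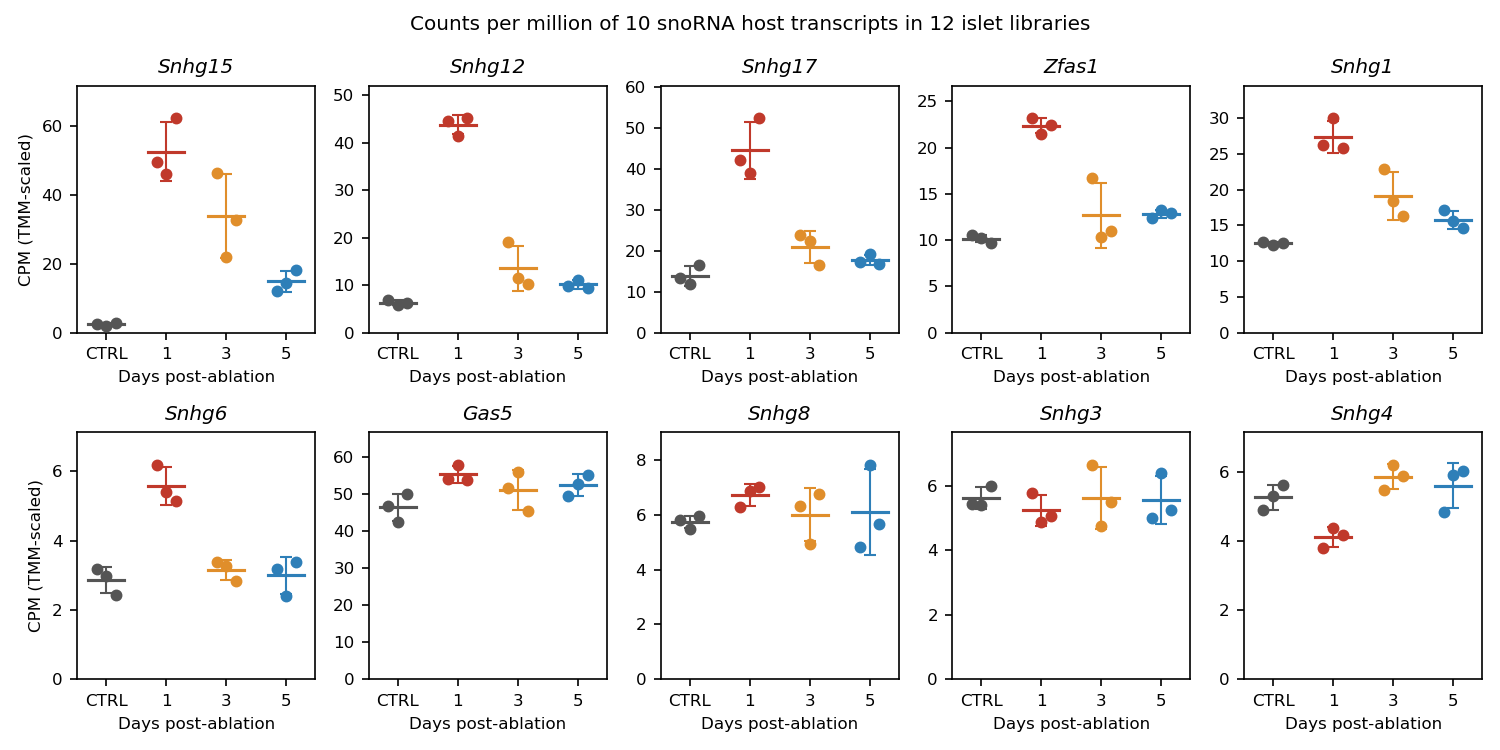
CPM (y axis, scaled by TMM) of each host in CTRL and at 1, 3 and 5 days post-ablation (x axis), 3 libraries per group as points, with the mean (line) and SD (bar). Snhg15 and Snhg12 peak at 1 day, at 52.5 and 43.8 CPM on average, while Snhg3 stays between 4.75 and 6.67 CPM in all 12 libraries.

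At 1 DPA, 7 of the 10 hosts were called higher than CTRL and 1 was called lower, at an edgeR quasi-likelihood adjusted p under 0.05 over all genes tested. Of all genes tested, 51.6% were called in this comparison, 29.2% higher and 22.4% lower. A rise of at least 1 on the log2 scale was called for 5 of the 10, beside 10.8% of all genes. Both the hosts and this limit of 1 were chosen with earlier results of these data known. The shares are therefore descriptions, not an independent test. The median log2 fold change of the hosts was 1.05, against -0.05 for all genes. When library sizes were counted without the 50 most abundant genes, the median of all genes moved to -0.175 and that of the hosts to 0.922, and of the calls over all genes 43.4% were higher in place of 56.6%. Relative to the median of all genes the hosts lay 1.10 higher under both scalings. A change of library size shifts all genes nearly alike, so that agreement was fixed in advance.

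Snhg15, host of Snora9, changed most. It had 49.4, 45.9 and 62.2 CPM at 1 DPA, against 2.47, 2.04 and 2.73 CPM in CTRL (1739 to 1960 counts per library at 1 DPA and 85 to 123 in CTRL). Every 1 DPA library thus lay far above every CTRL library. The log2 fold change was 4.44 ± 0.29 (SE; 21.7-fold, edgeR adjusted p = 9.59e-07). It stayed between 4.25 and 4.54 over the 19 other settings and left-out libraries.

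Snhg15 was also the host whose start region held the most of the motifs searched. These were the cAMP response element TGACGTCA, its core TGACGT, the E-box CACGTG and the ATF4-CEBP element TGATGNAA, each on both strands in windows of 300 bases, where a full element always holds the core. The full cAMP element was found at 2 of the 10 member starts (Snhg15 and 1 of 2 Gas5 starts), against 1.78% of other promoters. The core was found at the same 2 starts, against 7.51%, the E-box at 1 of 10 (Snhg15), against 7.15%, and TGATGNAA at 0 of 10, against 3.97%. Of 15 promoters of the listed ribosomal protein genes, 3 held the full cAMP element, 5 the core, 2 the E-box and 0 TGATGNAA. The Snhg15 window is printed because this gene carries the largest change, 5′ to 3′ on the minus strand of chromosome 11 (GRCm38.p6), with the motif letters in capitals. A match describes the letters only.
Snhg15, chr11:6528711-6529010: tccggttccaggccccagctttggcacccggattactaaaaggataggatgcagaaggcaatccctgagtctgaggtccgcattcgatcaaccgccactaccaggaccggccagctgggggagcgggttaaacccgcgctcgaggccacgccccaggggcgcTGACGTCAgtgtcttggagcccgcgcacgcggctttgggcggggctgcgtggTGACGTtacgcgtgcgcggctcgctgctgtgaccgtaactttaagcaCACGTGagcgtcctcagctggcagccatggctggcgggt

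Snhg12, host of Snora44, Snora61, Snord99 and Snora16a, came next. It had 44.7, 41.4 and 45.2 CPM at 1 DPA, against 6.94, 5.86 and 6.14 CPM in CTRL, with no overlap (log2 fold change 2.79 ± 0.20, edgeR adjusted p = 8.70e-07). Snhg17, which holds 3 annotated snoRNA genes, had 42.3, 38.9 and 52.4 CPM at 1 DPA, against 13.4, 11.8 and 16.6 CPM in CTRL (1.67 ± 0.16, edgeR adjusted p = 7.55e-06). In both Snhg15 and Snhg17 replicate 3 was the highest of its group, at 1 DPA as in CTRL.

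Snhg1, Zfas1 and Snhg6 about doubled. Snhg1, which holds 8 snoRNA genes, had 26.2, 30.03 and 25.9 CPM at 1 DPA, against 12.7, 12.2 and 12.6 CPM in CTRL (log2 fold change 1.13 ± 0.12, edgeR adjusted p = 1.08e-05). Zfas1, host of Snord12 genes, had 23.2, 21.5 and 22.5 CPM at 1 DPA, against 10.5, 10.2 and 9.74 CPM in CTRL (1.14 ± 0.15, edgeR adjusted p = 6.16e-05). Snhg6, host of Snord87, was rarer, with 6.20, 5.41 and 5.14 CPM at 1 DPA, against 3.17, 2.98 and 2.44 CPM in CTRL (0.96 ± 0.18, edgeR adjusted p = 0.000854). In all 3 genes the groups did not overlap.

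The other 4 hosts moved little or the other way. Gas5, the most abundant host in CTRL, had 54.2, 58.0 and 53.8 CPM at 1 DPA, against 46.7, 42.5 and 49.97 CPM in CTRL (log2 fold change 0.25 ± 0.08, edgeR adjusted p = 0.0253). Snhg4 was the 1 host called lower, with 3.80, 4.38 and 4.19 CPM at 1 DPA, against 4.91, 5.31 and 5.63 CPM in CTRL (-0.36 ± 0.14, edgeR adjusted p = 0.0459). Both calls were marginal. That of Gas5 was lost on leaving out CTRL replicate 1, CTRL replicate 2, 1 DPA replicates 2 or 3, or 3 DPA replicate 1 (adjusted p 0.0601 to 0.174), with only the 2 groups (0.0592) and without the 50 most abundant genes (0.232). Its log2 fold change was 0.145 without CTRL replicate 2 and 0.128 without the 50 most abundant genes. That of Snhg4 ended under 11 of 19 alternatives (adjusted p up to 0.132), among them those leaving out replicate 2 or 3 of CTRL, of 3 DPA or of 5 DPA, or replicate 1 or 2 of 1 DPA.

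Snhg8, host of Snora24, and Snhg3, host of Snora73a and Snora73b, were not called. Snhg8 had 6.28, 6.89 and 7.01 CPM at 1 DPA, all above its 5.80, 5.50 and 5.94 CPM in CTRL, but the log2 fold change of 0.23 ± 0.18 did not pass (edgeR adjusted p = 0.312, 95% interval -0.13 to 0.58). Snhg3 overlapped CTRL, with 5.78, 4.88 and 5.07 CPM at 1 DPA and 5.43, 5.43 and 6.01 CPM in CTRL (-0.10 ± 0.16, edgeR adjusted p = 0.613). Its 95% interval of -0.41 to 0.21 leaves out a doubling. In all, 8 hosts had every 1 DPA library above every CTRL library, beside 31.1% of all genes, and 1 had every library below, beside 23.5%.

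**Figure D2:**
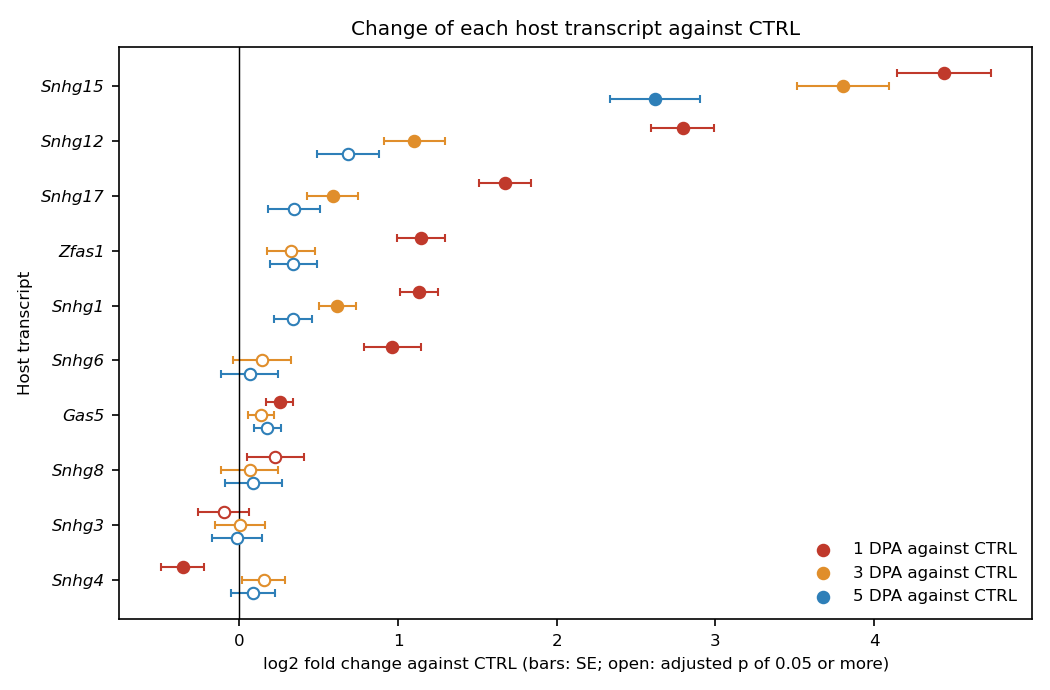
Log2 fold change against CTRL (x axis, bars show the SE) of each host (y axis) at 1, 3 and 5 DPA, with open points where the edgeR adjusted p was 0.05 or more. Snhg15 is called at all 3 times, at 4.44, 3.80 and 2.62, and 4 hosts are called at 3 DPA.

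By 3 DPA, 4 hosts were called higher than CTRL and 0 lower, beside 12.6% of all genes called, 10.2% higher and 2.37% lower. These 4 were also the hosts with every 3 DPA library above every CTRL library, beside 17.9% of all genes. DESeq2 also called 4 and limma-voom 3. Snhg15 had 46.3, 21.98 and 32.8 CPM at 3 DPA, against 2.47, 2.04 and 2.73 CPM in CTRL (log2 fold change 3.80 ± 0.29, edgeR adjusted p = 2.00e-05). Snhg12 had 19.0, 11.5 and 10.2 CPM at 3 DPA, against 6.94, 5.86 and 6.14 CPM in CTRL (1.10 ± 0.19, edgeR adjusted p = 0.00258). Snhg1 had 22.9, 18.4 and 16.3 CPM, against 12.7, 12.2 and 12.6 CPM in CTRL (0.62 ± 0.12, edgeR adjusted p = 0.00412). Snhg17 had 23.9, 22.4 and 16.6 CPM, and its lowest 3 DPA library and highest CTRL library both round to 16.6 (0.59 ± 0.16, edgeR adjusted p = 0.0340). The Snhg17 call was lost on leaving out replicate 1 or 2 of either group (adjusted p 0.0953 to 0.176), with limma-voom (0.0586), with only the 2 groups (0.101) and with the replicate block (0.0649).

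3 DPA replicate 1 was the highest library of its group for Snhg1, Snhg3, Snhg6, Snhg12, Snhg15, Snhg17 and Zfas1. Zfas1 shows it most plainly, with 16.7 CPM in that library and 10.3 and 10.99 CPM in the other 3 DPA libraries, against 9.74 to 10.5 CPM in CTRL. The Zfas1 log2 fold change of 0.32 ± 0.15 was not called (edgeR adjusted p = 0.207). Over all 10 hosts the median was 0.24 at 3 DPA, against -0.01 for all genes, and 0.121 without 3 DPA replicate 1. Snhg12 and Snhg15 were called without it too.

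At 5 DPA, Snhg15 alone of the 10 was called, beside 8.54% of all genes, with 5.87% of all genes called higher. Without the 50 most abundant genes, 79.1% of the calls over all genes were higher in place of 68.8%. It had 12.1, 14.4 and 18.2 CPM at 5 DPA, against 2.47, 2.04 and 2.73 CPM in CTRL (log2 fold change 2.62 ± 0.28, 6.14-fold, edgeR adjusted p = 0.000911). The groups remained clear of each other. Snhg12 had 9.88, 11.2 and 9.35 CPM at 5 DPA, against 6.94, 5.86 and 6.14 CPM in CTRL, also with no overlap, but just missed the threshold (0.68 ± 0.19, edgeR adjusted p = 0.0514). It was called by DESeq2 (0.0109), which called 2400 genes in place of 1477, and under 6 of the 19 alternatives in all. Every library was above CTRL for 5 hosts, which were Snhg1, Snhg12, Snhg15, Snhg17 and Zfas1, beside 16.5% of all genes. The median of the 10 was 0.26, against 0.01 for all genes, and 0.168 without CTRL replicate 2. Without 3 DPA replicate 1, which enters the shared estimate of the spread, Snhg1 (0.0488), Snhg12 (0.00458) and Zfas1 (0.0351) were called at 5 DPA as well, which made 4 hosts.

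Falls were called on different days. Between 1 and 3 DPA, 6 of 10 were called, beside 45.1% of all genes. Of the 6, 5 were lower at 3 DPA, beside 24.7% of all genes, and Snhg4 was higher (log2 fold change 0.51 ± 0.14), beside 20.4%. Without the 50 most abundant genes, 59.8% of the calls over all genes were higher in place of 45.3%. Snhg12 fell to 13.6 ± 4.75 CPM at 3 DPA, against 43.8 ± 2.02 CPM at 1 DPA (SD, n = 3 each; -1.69 ± 0.19, edgeR adjusted p = 4.19e-05). Snhg17 (-1.09 ± 0.16), Snhg6 (-0.82 ± 0.18), Zfas1 (-0.82 ± 0.15) and Snhg1 (-0.51 ± 0.12) were called lower too. Snhg15 was not, at -0.64 ± 0.24 (edgeR adjusted p = 0.0550), although DESeq2, limma-voom, the replicate block and the fit without 3 DPA replicate 1 (-0.926) called it.

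Between 3 and 5 DPA, Snhg15 was the 1 host called, beside 3.16% of all genes called in either direction and 2.46% called lower, with 14.9 ± 3.07 CPM at 5 DPA, against 33.7 ± 12.2 CPM at 3 DPA (log2 fold change -1.18 ± 0.25, edgeR adjusted p = 0.0345). This call held on leaving out replicate 3 of CTRL, replicate 3 of 1 DPA or replicate 2 of 3 DPA. It ended without any other single library (adjusted p 0.0536 to 0.154). Without 3 DPA replicate 1 the value was -0.856. From 1 to 5 DPA, 7 hosts were called, beside 56.1% of all genes (29.8% lower and 26.3% higher): Snhg12 (-2.11 ± 0.19), Snhg15 (-1.82 ± 0.25), Snhg17 (-1.33 ± 0.16), Snhg6 (-0.90 ± 0.18), Zfas1 (-0.80 ± 0.15) and Snhg1 (-0.79 ± 0.12) were lower at 5 DPA and Snhg4 (0.44 ± 0.14) was higher. Without the 50 most abundant genes, the calls over all genes were higher for 60.8% in place of 46.9%. The Snhg4 call was lost on leaving out replicate 1 of 1 DPA or replicate 2 or 3 of 5 DPA (adjusted p 0.0541 to 0.0617).

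Because the hosts differ in length, their levels were ranked in the authors' deposited TPM values, which divide each count by a fixed length per gene. That length is not stated in the sources used here, and the order between hosts depends on it. The order in CTRL was led by Gas5 (26.8 ± 3.63 TPM), Snhg8 (20.6 ± 1.99) and Snhg3 (12.4 ± 1.33), and Snhg15 was ninth of 10, at 3.86 ± 0.762 TPM (SD, n = 3). Snhg12 (8.42 ± 1.10), Zfas1 (7.49 ± 0.467) and Snhg17 (6.54 ± 1.48) lay within an SD of a neighbour in that order. At 1 DPA Snhg15 was first, at 99.1 ± 28.2 TPM, ahead of Snhg12 (68.3 ± 10.1) and Gas5 (37.3 ± 4.68). In CPM, without a length, Gas5 (55.3 ± 2.27) and Snhg15 (52.5 ± 8.55) were close at 1 DPA. The Snhg15 libraries, at 81.0 to 131.6 TPM, did not overlap those of Snhg12, at 61.2 to 79.9 TPM. At 3 DPA Snhg15 was still first, at 58.0 ± 23.0 TPM, followed by Gas5 (31.5 ± 3.41). At 5 DPA Gas5 led again, at 32.9 ± 1.57 TPM, with Snhg15 second at 25.8 ± 4.92 TPM, within an SD of Snhg8 (23.7 ± 4.80). Snhg4 was last in all 4 groups, at 2.83 to 3.68 TPM on average.

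Some hosts start beside a protein-coding gene, which gives a second readout of the same stretch of chromosome. Slc3a2, the heavy chain of an amino acid transporter, starts 106 bases from Snhg1 on the opposite strand (chromosome 19, minus, 8706882 to 8723369, against Snhg1 at 8723475 to 8726443, plus, mm10) and does not overlap it. Slc3a2 had 168 ± 16.8 CPM at 1 DPA and 179 ± 15.9 CPM in CTRL (log2 fold change -0.09 ± 0.08, edgeR adjusted p = 0.354). Its 95% interval of -0.25 to 0.07 lies below the 0.90 to 1.36 of Snhg1. Znfx1, an RNA helicase gene, starts 81 bases from Zfas1 on the opposite strand and had 151 ± 14.0 CPM at 1 DPA and 151 ± 5.78 CPM in CTRL (0.00 ± 0.08, edgeR adjusted p = 0.986), with a 95% interval of -0.16 to 0.17 beside 0.85 to 1.44 for Zfas1. The difference between the genes of a pair was not tested as such.

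Beside Gas5, Zbtb37, a zinc finger gene that starts 427 bases away on the opposite strand, was called lower at 1 DPA (-0.44 ± 0.13, edgeR adjusted p = 0.0133), with 16.4 ± 1.84 CPM at 1 DPA and 22.3 ± 1.95 CPM in CTRL. Rcc1, the exchange factor of the GTPase Ran, starts 81 bases from Snhg3 on the same strand and was not called (0.31 ± 0.14, edgeR adjusted p = 0.0768). The library kit was stranded, per the labels' protocols, but no source used here says whether counting used strand. Reads of the overlapping pairs Gas5 and Zbtb37, Zfas1 and Znfx1, and Snhg6 and Mcmdc2 (1.26 ± 0.66, not called, edgeR adjusted p = 0.128) may therefore not be told apart, nor those of Snhg3 and its antisense partner Gm17300, nor those of Snhg3 and Rcc1, which share a strand.

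**Figure D3:**
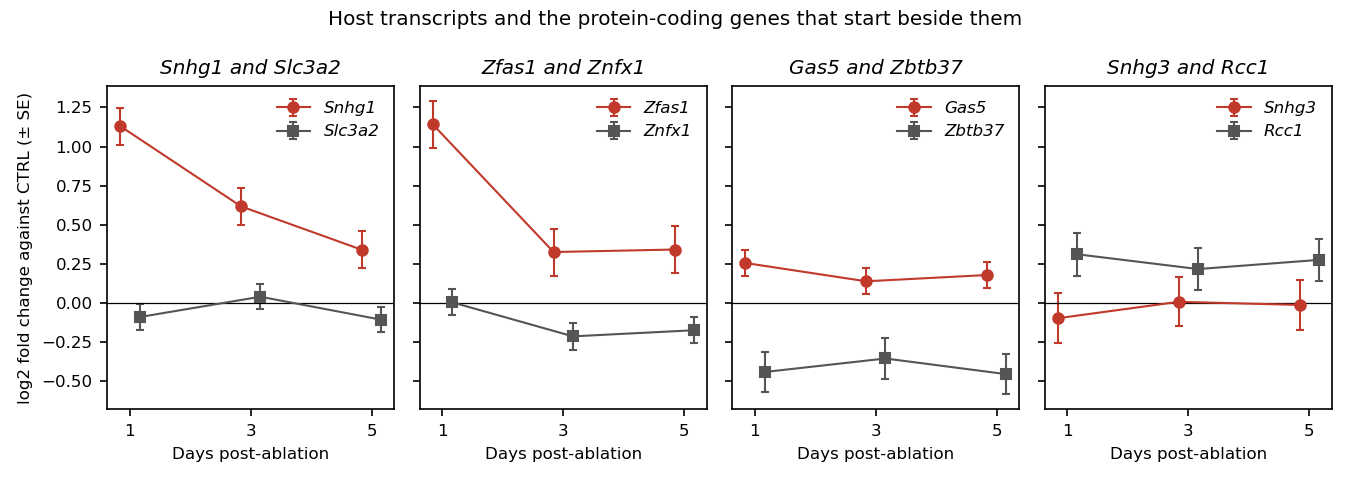
Log2 fold change against CTRL (y axis, bars show the SE) at 1, 3 and 5 days post-ablation (x axis) of 4 hosts (circles) and the protein-coding genes that start beside them (squares). Snhg1 and Zfas1 lie above 1.00 at 1 DPA while Slc3a2 and Znfx1 lie at -0.09 and 0.00.

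Other non-coding snoRNA hosts were called about as often as genes in general, but a larger share of them rose strongly at 1 DPA. Of 14 listed, 11 were in the table and 9 were tested, and at 1 DPA 3 were called higher and 2 lower (median -0.05, the same as all genes), beside 29.2% of all genes higher and 22.4% lower. Epb41l4aos (log2 fold change 3.26 ± 0.21), 2410006H16Rik (2.05 ± 0.22) and Snhg5 (1.32 ± 0.16) rose, and Snhg18 (-1.01 ± 0.13) and Rian (-0.47 ± 0.17) fell. A rise of at least 1 on the log2 scale was thus called for 3 of the 9 tested, beside 10.8% of all genes. A strong rise at 1 DPA was therefore not particular to the hosts chosen here. Rian, an imprinted host of many snoRNAs, was named after its value was seen. Epb41l4aos had 23.7 ± 5.19 CPM at 1 DPA, against 2.47 ± 0.0458 CPM in CTRL, and was still called at 3 DPA (1.82 ± 0.20) and 5 DPA (1.09 ± 0.20).

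Among 31 protein-coding snoRNA hosts, which make a stable protein from their exons, 7 were higher and 8 lower at 1 DPA, with a median of -0.07, again close to the 29.2% and 22.4% of all genes. The snoRNP core genes Nop58 (1.87 ± 0.10) and Nop56 (1.14 ± 0.10) and the mitochondrial chaperone gene Hspa9 (0.99 ± 0.08) rose, while all 8 that fell changed by less than 0.5. When scaled without the 50 most abundant genes, 7 were higher and 14 lower. At 3 DPA 9 were higher and 0 lower, beside 10.2% and 2.37% of all genes, and at 5 DPA Nop58 alone was called (0.51 ± 0.10). Of 20 ribosomal protein genes, 2 were higher and 9 lower at 1 DPA (median -0.19), or 2 and 16 when scaled without the 50 most abundant genes, with Rplp0 at -0.49 ± 0.06, Rps4x at -0.34 ± 0.06, Rpl18 at 1.596 ± 0.29 and Rps18 at 0.77 ± 0.13. At 3 and 5 DPA 5 and 1 were higher and 0 lower. Many of these genes have near-identical copies, so their counts are uncertain, and both lists share Rpl3, Rpl4, Rpl5 and Rps3.

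Protein-coding genes that decay is known to limit, by poison exons or upstream frames, were mostly higher as well. Of 14, 8 were higher and 2 lower at 1 DPA (median 0.94), 8 were higher and 0 lower at 3 DPA (0.58) and 6 were higher and 0 lower at 5 DPA (0.52). Over all genes, 29.2% were higher and 22.4% lower at 1 DPA, and 10.2% and 2.37% at 3 DPA. At 5 DPA 5.87% of all genes were higher. The splicing factor genes Tra2b (1.964 ± 0.11), Srsf3 (1.78 ± 0.12) and Ptbp2 (2.07 ± 0.14) had the smallest p at 1 DPA. The 2 lower genes, named after their values were seen, were the cystine transporter gene Slc7a11 (-1.89 ± 0.62) and Tbl2 (-0.22 ± 0.08). Counts per gene sum the decayed and the productive isoforms of these genes. Several of them, such as Ddit3 and Atf4, are also genes of the integrated stress response.

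The decay machinery itself moved at 1 DPA. Of 20 factors, 14 were higher and 0 lower (median 0.37), beside 29.2% and 22.4% of all genes. When scaled without the 50 most abundant genes, 12 were higher and 1 lower. Upf2 (1.03 ± 0.08) and Upf3a (1.29 ± 0.11), which join the UPF complex to exon junctions, and Smg5 (0.81 ± 0.06), which takes part in the dephosphorylation of UPF1, had the smallest p. At 3 DPA 5 were higher and Nbas (-0.25 ± 0.07) was lower, beside 10.2% and 2.37% of all genes. At 5 DPA the exon junction gene Casc3 (0.47 ± 0.10) was higher and the kinase gene Smg1 (-0.36 ± 0.10) was lower. Of all genes, 8.54% were called at 5 DPA. With RLE scaling, and without the 50 most abundant genes, 0 of the 20 were lower at 5 DPA and 2 at 3 DPA. Nbas was named after its value was seen.

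Genes of the step that the toxin attacks, elongation factor 2 and the enzymes of diphthamide synthesis, numbered 8. At 1 DPA 4 were higher and 1 lower (median 0.27), beside 29.2% and 22.4% of all genes. In all, 5 of the 8 were called, beside 51.6% of all genes. Without the 50 most abundant genes 4 were higher and 2 lower. Dph5 (1.17 ± 0.15), Dph2 (0.68 ± 0.13) and Dph1 (0.48 ± 0.10) rose, as did Dph7 (0.52 ± 0.13), and Dnajc24 fell (-0.40 ± 0.11); these last 2 were named after their values were seen. At 3 and 5 DPA 0 of the 8 were called, beside 12.6% and 8.54% of all genes. Translation itself and RNA half-lives were not measured in these libraries.

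**Figure D4:**
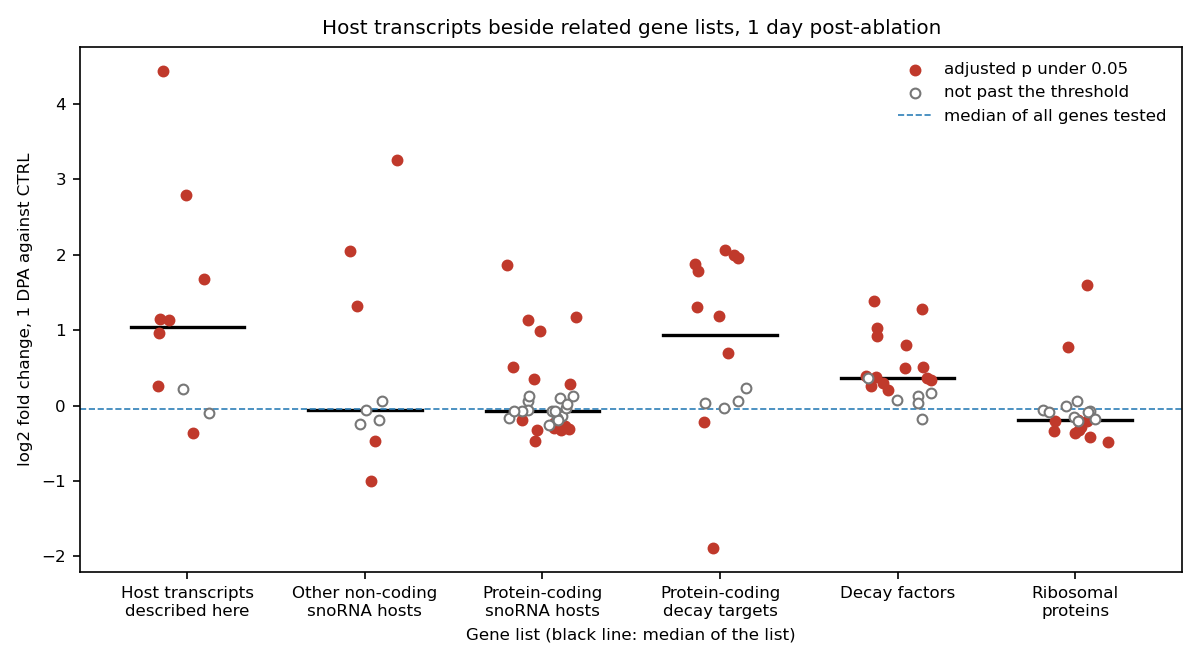
Log2 fold change at 1 DPA against CTRL (y axis) of the genes of 6 lists (x axis), filled where the edgeR adjusted p was under 0.05, with the median of each list (black line) and of all genes tested (dashed line, -0.05). The hosts described here and the protein-coding decay targets have medians of 1.05 and 0.94, and the other lists lie between -0.19 and 0.37.

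Markers of several cell types moved at 1 DPA beside the hosts. Beta cell markers were lower for 8 of 10 (median -0.40), macrophage markers for 11 of 12 (median -1.50) and endothelial markers for 6 of 9 (-0.40). Stromal markers were lower for 4 of 12 (-1.06) and duct markers for 2 of 6 (-0.56). Of all genes, 22.4% were called lower. Of the alpha, delta and PP cell markers 0 of 7 were called (-0.282), and of the acinar markers 0 of 12 (-0.465). The acinar medians were -2.105 at 3 DPA and -1.175 at 5 DPA, again with 0 called. Acinar markers took 0.587% to 5.07% of counts at 1 DPA and 0.476% to 1.38% at 3 DPA. At 5 DPA they took 0.887% to 3.08%, against 1.11% to 6.52% in CTRL. Macrophage markers took 0.0109% to 0.0144% of counts at 1 DPA, against 0.0150% to 0.0632% in CTRL. Stromal markers took 0.0838% to 0.109% at 1 DPA, against 0.0840% to 0.264% in CTRL. At 3 and 5 DPA 3 and 5 beta cell markers were called lower, and at 5 DPA 2 macrophage and 2 stromal markers were called higher. Of all genes, 2.37% were called lower at 3 DPA. At 5 DPA 8.54% were called in either direction and 5.87% higher. Scaled without the 50 most abundant genes, 1 beta cell marker was lower at 5 DPA in place of 5, and 6 stromal markers were lower at 1 DPA in place of 4. With RLE scaling 1 stromal marker was higher at 5 DPA in place of 2. Mitochondrial transcripts took 1.61%, 1.76% and 1.62% of counts at 1 DPA, 2.05%, 2.35% and 2.01% at 3 DPA and 1.98%, 2.12% and 2.02% at 5 DPA, against 2.47%, 2.32% and 2.64% in CTRL. The 1 and 5 DPA libraries lay below every CTRL library, and those of 3 DPA overlapped them. The part of these markers and of the mitochondrial share in the host results was not tested. Without CTRL replicate 3, 7 of 10 hosts were called at 1 DPA and their median was 0.988.

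The genes whose pattern over the 12 libraries was most like the mean of the 10 standardised hosts were Tacc2 (Pearson r = 0.956), Polb (0.948), Mtx1 (0.941), Gltscr2 (0.940), Csnk1d (0.940), Tra2b (0.937), Thoc7 (0.937), Rccd1 (0.937), Dnaic2 (0.936) and Ist1 (0.936). The values are descriptions over 10362 genes whose log2 CPM averaged 3 or more. Genes with predicted, clone-based, Rik, pseudogene or mitochondrial names were left out, so 2410006H16Rik, for example, could not appear. The 12 libraries share their 4 groups, so any gene that peaks at 1 DPA scores high. All 10 had their largest log2 fold change at 1 DPA, such as 1.74 for Tacc2, a centrosomal gene, and 1.23 for Polb, a DNA repair polymerase, with 1.08 and 0.65 at 3 DPA and 0.53 and 0.25 at 5 DPA.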

How the data were processed

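Per the labels' protocols, islet RNA was purified on RNeasy Mini columns, and sequencing libraries were built with the stranded mRNA kit QIAseq. Per the file headers, the authors deposited read counts and TPM values for each gene and library. The submitters' processing notes name mm10. The aligner and counter, and the annotation, were not given in the sources used here. The TPM of each library followed its count over a fixed length (12874 genes checked, largest log2 deviation 5.1e-10). Another 24 per-sample columns of the deposited data were not used.

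Of 48709 genes, 17294 passed filterByExpr at a minimum count of 10. A robust quasi-likelihood model of the TMM-scaled counts (edgeR 4.0.16, R 4.3.3) gave each group a mean over all 12 libraries, and p-values were adjusted by Benjamini-Hochberg over all genes tested at 0.05. Standard errors came from the F statistic, and CPM from TMM-scaled library sizes. The fit was also run on simulated counts in which few genes changed, as many up as down. That run cannot show how the calls behave at 1 DPA, where 51.6% of genes were called. Alternatives were DESeq2 1.42.0, limma 3.58.1 (voom), RLE scaling, totals that leave out the 50 most abundant genes, testing unfiltered genes, fitting only 2 groups, a replicate block and leaving out each library. No label ties a library to an animal of its own. The p-values therefore measure the spread among these libraries only, possibly a technical one. Same-numbered 3 and 5 DPA libraries deviated together (correlations 0.156, 0.187 and 0.326), by the data alone, which no other pair of groups did in all 3 numbers. No replicates agreed within sampling noise.

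Named genes were the 10 hosts, their neighbours (overlapping, or starting within 2000 bases), snoRNA genes inside them, up to 3 called genes of smallest p per list, and the 10 most similar patterns. The hosts, lists, motifs, the codon minimum, the pyrimidine rule and the count at a log2 fold change of 1 were chosen with earlier results of these data known. The choice of transcript was changed from the longest to the one with most exons after its output was seen, and the core motif was dropped and restored after its counts were seen. Snhg10, Snhg16 and Dancr were not matched by symbol. Gene positions came from GENCODE M21 and promoters from RefSeq (GRCm38.p6).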

Additional observations from a re-analysis of the deposited data

Results flagged for a closer look

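Results were listed here where the change of a host differed between days by the fit's own contrast of those days. At 3 DPA, against 1 DPA, the log2 fold change was -0.51 for Snhg1, -0.82 for Snhg6, -1.69 for Snhg12, -1.09 for Snhg17, -0.82 for Zfas1 and 0.51 for Snhg4. At 5 DPA, against 3 DPA, it was -1.18 for Snhg15. At 5 DPA, against 1 DPA, it was -0.79 for Snhg1, -0.90 for Snhg6, -2.11 for Snhg12, -1.82 for Snhg15, -1.33 for Snhg17, -0.80 for Zfas1 and 0.44 for Snhg4. Gas5, Snhg3 and Snhg8 were called in 0 of these 3 contrasts by edgeR.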

How the results depend on the processing

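Of 1140 values of single hosts over 6 comparisons and 19 alternatives, 1089 kept their side of the threshold, 39 lost a call and 12 gained one. Of the called ones 0 changed sign. Values called in neither fit were not compared for sign, and some changed it. Snhg3 at 3 DPA, for example, ran from -0.173 to 0.112. The rises of Snhg1, Snhg6, Snhg12, Snhg15, Snhg17 and Zfas1 at 1 DPA were called under all 19. Without the 50 most abundant genes the median host change at 1 DPA was 0.922. At 5 DPA 2 hosts were called by DESeq2, without the 50 most abundant genes, with only the 2 groups and with the replicate block. Over all genes these settings called 2400, 1383, 622 and 1330 at 5 DPA, in place of 1477. Between 3 and 5 DPA 0 hosts were called with no filter and with only the 2 groups, which called 374 and 899 of all genes, in place of 547. The replicate block gave 8, 3 and 2 hosts called at 1, 3 and 5 DPA, in place of 8, 4 and 1, and it kept the 1 host called between 3 and 5 DPA. Leaving out 1 library gave 6 to 8 hosts called at 1 DPA, 3 to 4 at 3 DPA, 1 to 4 at 5 DPA, 6 to 7 between 1 and 3 DPA, 0 to 1 between 3 and 5 DPA and 6 to 7 between 1 and 5 DPA. The medians then ran from 0.988 to 1.051, 0.121 to 0.319 and 0.168 to 0.274 at 1, 3 and 5 DPA. The fit without 3 DPA replicate 1, which called 4 hosts at 5 DPA, called 1481 of all genes there. The other leave-one-out counts are given without their counts over all genes. Snhg3, Snhg4, Snhg6 and Snhg8, below 8 CPM in every library, had standard errors of 0.14 to 0.18 on the log2 scale at 1 DPA, beside 0.08 for Gas5 and 0.29 for Snhg15, so the precision did not follow the level alone.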
